A study of Mus musculus with 12 samples.

Results

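Adipocytes read the hormonal state of the body through receptors on their surface, and 9 genes for such receptors were followed across the 12 libraries of this series. They encode receptors for thyrotropin (Tshr), prokineticins (Prokr1), growth hormone (Ghr), natriuretic peptides (Npr1, Npr2 and Npr3), leptin (Lepr), parathyroid hormone (Pth1r) and prostaglandin E2 (Ptger3). They were taken by gene symbol, and all 9 were among the 48321 genes of the table. The choice of 2 of them used measured values: Tshr was taken because it was lower in the truncated Sema4B line than in the vector line, and Prokr1 because it was lower after norepinephrine (NE) than without it. These differences are given as descriptions and were not tested. The other 7 genes were named for their function, although all 9 were chosen with earlier results of these data known. In all, 7 of the 9 genes reached 10 normalized counts in 3 or more libraries and entered the tests, whereas Lepr and Ptger3 did not. Npr2 passed this filter only through the group in which it was highest, so its values are described below without being used as support.

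The cells were brown preadipocytes of a wild-type C57BL/6J mouse, immortalized with SV40 large T antigen and stably transduced with either the empty pLEX vector (vector) or a truncated form of the transmembrane protein semaphorin 4B (tSema4B), which stands for the soluble product that the protease ADAM17 releases. Each construct was represented by 1 transduced line, so the comparison of lines does not separate the construct from clone or passage. Both lines were differentiated over 8 days in 10% new-born calf serum, with insulin and T3 throughout and with dexamethasone, IBMX and rosiglitazone only in the first phase, then kept in serum-free medium for 6 h with or without 2 μM NE, the sympathetic transmitter that drives thermogenesis. This gave 4 groups of 3 libraries, in which each line was either unstimulated or treated with NE. The 3 libraries within a group are technical replicates by their labels, and every SD and p-value below measures only the spread between such libraries. All 4 groups share the immortalizing antigen, the wild-type background and the differentiation protocol, which itself includes a glucocorticoid, a thyroid hormone and a PPARγ agonist.

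Receptors of this kind fall into several classes. Tshr, Prokr1, Pth1r and Ptger3 are G protein-coupled receptors, of which those for thyrotropin and parathyroid hormone act mainly through stimulatory G proteins and cyclic AMP, that for prostaglandin E2 through inhibitory G proteins, and that for prokineticins largely through Gq and calcium. Npr1 and Npr2 are receptor guanylyl cyclases that make cyclic GMP, whereas Npr3 lacks a cyclase domain and removes natriuretic peptides from the surroundings. Ghr and Lepr are cytokine-type receptors that signal through JAK2 and STAT proteins.

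Libraries held between 2000617 and 5408959 reads on genes, and tSema4B libraries were the shallower ones in each condition. The median was 2882998 reads for vector unstimulated, 2217437 for tSema4B unstimulated, 4926757 for vector NE and 2776041 for tSema4B NE. The transduced gene was higher in the libraries labelled tSema4B, with Sema4b at 116797 ± 6692 normalized counts in vector unstimulated, 281514 ± 31108 in tSema4B unstimulated, 74266 ± 8219 in vector NE and 234276 ± 32374 in tSema4B NE (SD, n = 3). The vector libraries were thus themselves rich in Sema4b reads, at 2.04 to 4.02% of all reads. The tSema4B libraries exceeded them 2.41-fold without NE and 3.15-fold after NE. The line comparison therefore sets a higher against an already high Sema4b count, and the counts do not separate the truncated from the full-length transcript. Whether all Sema4b reads of the vector libraries came from expression in those cells was not tested. A gene was called when limma gave it an adjusted p of at most 0.05 and its log2 fold change was 1 or more in size. Beyond the 9 members, a gene that reached 10 normalized counts in fewer than 3 of the 6 libraries on one side of a contrast (a line, or the presence or absence of NE) did not pass the filter on that side alone, and such genes are described without a test and left out of the counts, a restriction set after the values were seen. Without them, limma called 3.34% of genes between lines without NE and 5.16% after NE (of 11148), and 2.43% with NE in vector and 1.73% in tSema4B cells (of 11192). The lines also differed in their adipocyte markers. Of 12 brown adipocyte markers, the 10 that reached the filter in each line were all called lower in tSema4B than in vector cells in both conditions. The summed level of the 12 was 41599 to 47405 normalized counts in vector unstimulated, 6794 to 9652 in tSema4B unstimulated, 56006 to 68020 in vector NE and 10944 to 12404 in tSema4B NE. The marker Ucp1 had no read in any tSema4B unstimulated library and 12.1 ± 2.98 normalized counts in vector unstimulated. Of 10 preadipocyte and fibroblast markers tested, 3 (Col1a1, Col3a1 and Fap) were called higher in tSema4B cells in both conditions. On the adjusted p alone 8 were higher without NE and 9 after it, with none lower (median log2 fold change 0.55 and 0.83). On that threshold 13.0% and 21.0% of all 11996 genes passed, in either direction. The macrophage list was higher with NE in vector cells, summing to 13.1 to 21.7 normalized counts without NE and 41.7 to 59.6 with it, and overlapped in tSema4B cells, at 17.8 to 29.4 and 25.7 to 52.1. Its defining genes Ptprc, Adgre1, C1qa and C1qb had no read in any library. The part of these lists in the line and NE differences below was not tested. In bulk RNA, fewer cells of a type and less RNA per cell cannot be told apart.

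**Figure D1:**
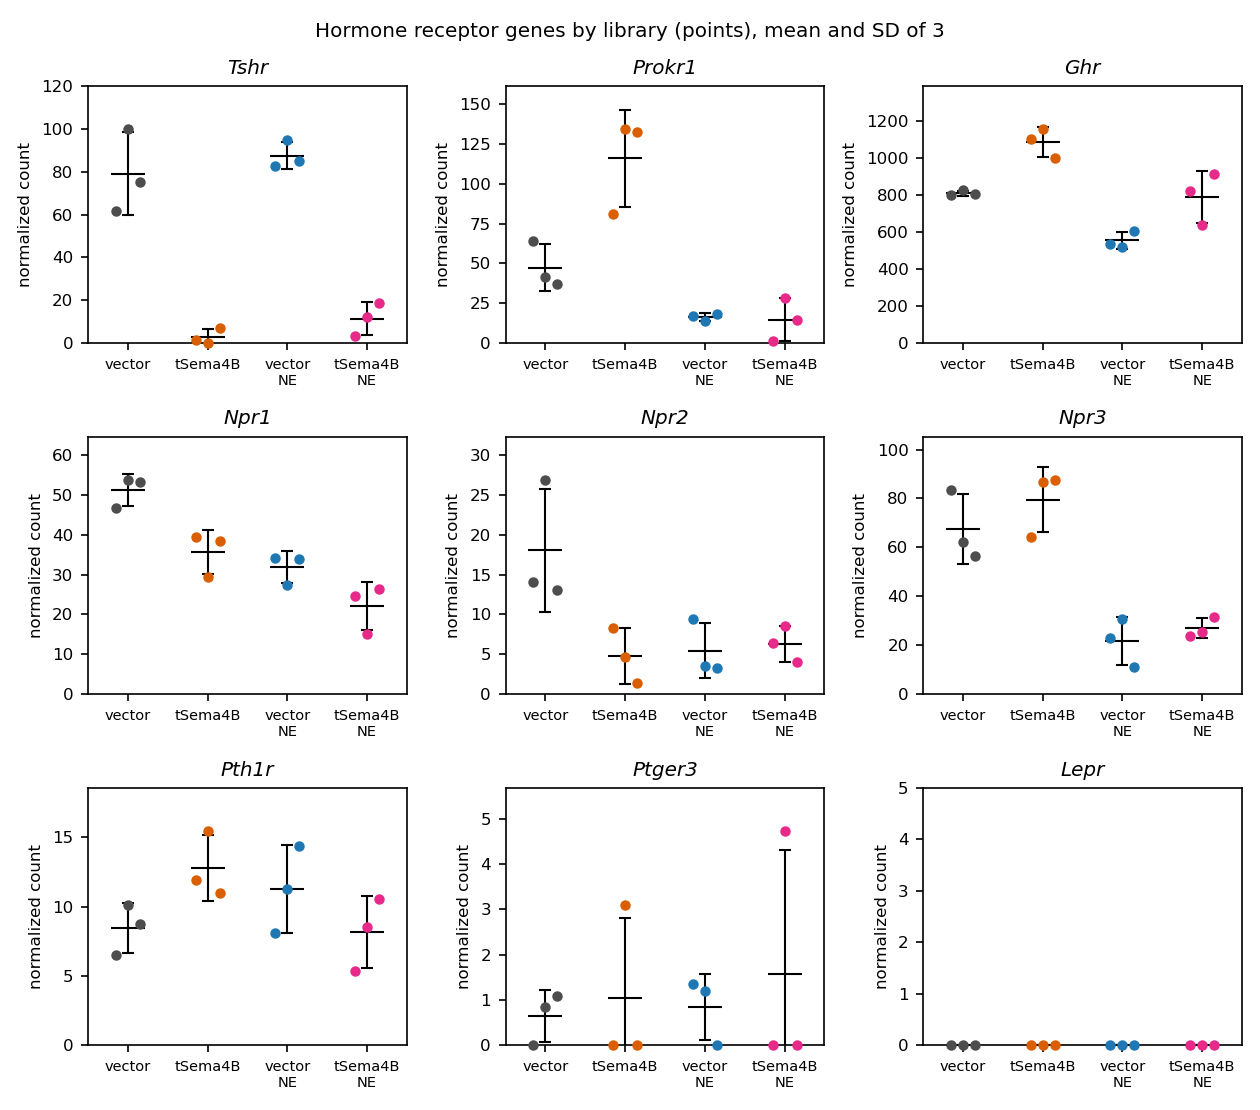
Normalized count (y axis, linear, 1 scale per gene) of the 9 receptor genes in each of the 12 libraries, by group (x axis). Points are libraries, horizontal lines the mean and bars the SD of 3. Tshr is at 18.5 or less in the 6 tSema4B libraries and at 61.9 or more in the 6 vector libraries, Npr3 is lower with NE than without it in both lines, and Lepr is at 0 throughout.

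Tshr, the receptor through which thyrotropin can stimulate lipolysis and thermogenesis in adipocytes, was present in vector cells and almost absent from tSema4B cells. The gene (ENSMUSG00000020963.15) lies on the plus strand of GRCm38 at chr12:91384563-91549808. Without NE its normalized counts were 61.9, 100.1 and 75.2 in the vector libraries and 1.19, 0 and 6.85 in the tSema4B libraries. After NE they were 82.6, 94.8 and 85.1 in vector and 3.22, 12.3 and 18.5 in tSema4B. Every tSema4B library was thus below every vector library in both conditions, as the choice of the gene required. Summed over libraries, 6 reads stood against 245 without NE, a level 29.9-fold lower (95% exact interval for counting error only, 13.5 to 82.2), and 30 reads against 413 after NE, 8.04-fold lower (5.54 to 12.1). On the log2 scale with a pseudocount of 1, the fitted differences were -4.93 ± 0.596 (SE) and -3.10 ± 0.596. The first shrank to -2.83 with a pseudocount of 10, and the tSema4B values lie near that of a few reads. Single libraries also moved these values, the first to -4.24 without tSema4B unstimulated replicate 2 and to -5.73 without tSema4B unstimulated replicate 3, and the second to -2.46 without tSema4B NE replicate 1.

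In vector cells NE left Tshr at 87.5 ± 6.44 normalized counts against 79.0 ± 19.4 (SD, n = 3). The fitted log2 fold change was 0.17 ± 0.596 (SE). Tshr was chosen on these high vector values too and passed the filter through them, so this difference is also a description without a test. In tSema4B cells it was 11.3 ± 7.69 after NE against 2.68 ± 3.66, a fitted log2 fold change of 2.00 ± 0.596 (SE). The unstimulated libraries of this comparison are those whose low values led to the choice of Tshr, so the difference is a description and carries no test. The groups overlapped, with the lowest NE library at 3 reads and the highest unstimulated library at 5 reads. Over 22 alternatives the log2 fold change ran from 0.72 to 2.80. Among the 4 groups the order was vector NE, vector unstimulated, tSema4B NE and tSema4B unstimulated, and the only neighbours that did not overlap were vector unstimulated and tSema4B NE.

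Prokr1 encodes a receptor for prokineticins, secreted peptides that act on adipocytes and endothelium. The gene (ENSMUSG00000049409.9) lies on the minus strand at chr6:87578591-87590743. Its normalized counts were 64.1, 41.2 and 37.0 in vector unstimulated and 16.8, 13.6 and 18.3 in vector NE. In tSema4B cells they were 81.0, 134.6 and 132.8 without NE and 1.07, 28.4 and 14.5 with it. Libraries with NE lay below those without NE in each line, which is the difference the gene was chosen on. The summed reads were 76 against 142 in vector cells, 2.90-fold lower with NE (95% exact interval for counting error only, 2.18 to 3.89), and 42 against 252 in tSema4B cells, 7.43-fold lower (5.35 to 10.6). The lowest value came from a single read (1.07 normalized counts, exact interval 0.0271 to 5.97), and without that library, tSema4B NE replicate 1, the fitted log2 fold change with NE in tSema4B cells went from -3.54 to -2.42.

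The 2 lines were also compared for Prokr1. Without NE the mean was 116 ± 30.4 in tSema4B and 47.4 ± 14.6 in vector cells (SD, n = 3), and the lowest tSema4B library lay above the highest vector library. The fitted log2 fold change was 1.28 ± 0.598 (SE). Over 22 alternatives it ran from 1.12 to 1.52. After NE the lines overlapped at 14.7 ± 13.7 in tSema4B and 16.3 ± 2.40 in vector cells. The fitted difference was -0.80 (95% interval -2.04 to 0.44) and turned to 0.32 without tSema4B NE replicate 1. The unstimulated libraries serve both the line comparison and the NE difference, so a high unstimulated level enters both. The NE libraries enter both in the same way. Neither line difference is independent of the choice of Prokr1, so both are descriptions and carry no test. The order of the groups was tSema4B unstimulated, vector unstimulated, vector NE and tSema4B NE, with overlap between the last 2 only.

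The promoters of Prokr1 and, further on, Npr3 are shown because these were the 2 members with a fitted log2 fold change below -1 with NE in both lines, which for Prokr1 is the difference it was chosen on. Ghr and Npr1, with smaller values, are not printed. The 250 bases before the annotated start (RefSeq, GRCm38.p6, minus strand, chr6:87590744-87590993) overlap no annotated exon and are written 5′ to 3′, with capitals for the GC box GGGCGG searched on both strands.
Prokr1 promoter: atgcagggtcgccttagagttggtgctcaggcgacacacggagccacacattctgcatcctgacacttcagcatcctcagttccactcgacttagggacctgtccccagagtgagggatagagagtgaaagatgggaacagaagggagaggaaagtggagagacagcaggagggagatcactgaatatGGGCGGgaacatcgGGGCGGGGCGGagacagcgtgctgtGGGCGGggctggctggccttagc
The window held 4 GC boxes, of which 2 share a base, and neither a cyclic AMP response element half-site (TGACG), a full element (TGACGTCA, which contains the half-site) nor an NBRE, the element of the NR4A receptors (AAAGGTCA). Over all 32851 promoter windows of the same length, 32.7% held a GC box, 17.8% the half-site, 1.55% the full element and 1.34% the NBRE. Of the 9 receptor genes, 8 matched 12 windows in this table, none of which held the full element or the NBRE.

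Ghr was the most abundant of the 9 receptors and differed by small amounts between lines and with NE. It encodes the growth hormone receptor, which signals through JAK2 and STAT5 and has Igf1 among its known targets. The gene (ENSMUSG00000055737.12) lies on the minus strand at chr15:3317760-3583492. Its normalized counts were 801, 827 and 808 in vector unstimulated and 1105, 1160.2 and 1001 in tSema4B unstimulated. After NE they were 539, 522 and 606 in vector and 822, 638 and 914 in tSema4B. Each tSema4B library lay above every vector library of the same condition, and NE libraries lay below unstimulated ones in each line. The log2 fold change between the lines was 0.42 ± 0.112 (SE) without NE (limma adjusted p = 0.0140) and 0.50 ± 0.112 after NE (limma adjusted p = 0.0028). That of NE was -0.55 ± 0.112 in vector (limma adjusted p = 0.0024) and -0.47 ± 0.112 in tSema4B cells (limma adjusted p = 0.0117). All 4 passed on the adjusted p and none reached a log2 fold change of 1 in size. The line difference without NE no longer passed when vector unstimulated replicate 1 (limma adjusted p = 0.0538) or tSema4B unstimulated replicate 2 (0.0610) was left out. That of NE in tSema4B cells no longer passed without tSema4B unstimulated replicate 2 (limma adjusted p = 0.0524) or tSema4B NE replicate 2 (0.0825), nor with only the 6 libraries compared (0.0566). The response to NE did not differ detectably between the lines, with an interaction of 0.08 and a 95% interval of -0.25 to 0.41 (limma adjusted p = 0.911). The order was tSema4B unstimulated, vector unstimulated, tSema4B NE and vector NE, with overlap between the middle 2.

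**Figure D2:**
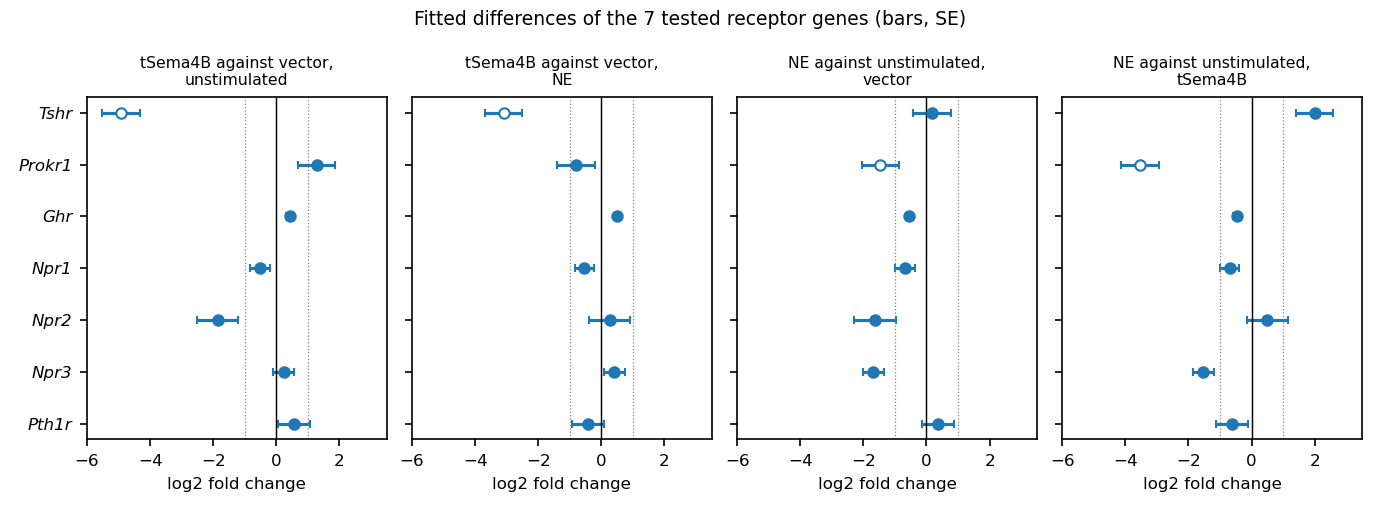
Fitted log2 fold change (x axis, log2 of normalized count plus 1) of the 7 tested receptor genes (y axis) in each of the 4 comparisons, with bars for the SE. Open points mark Tshr between lines (-4.93 and -3.10) and Prokr1 with NE (-1.46 and -3.54), which were used to choose the genes and carry no test, and dotted lines mark a log2 fold change of 1 in size. Tshr with NE in both lines, Prokr1 between lines and Npr2 relative to vector unstimulated are also descriptions without a test. Npr3 is below -1 in both NE panels, and Ghr has the shortest bars.

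Genes of growth hormone and leptin signalling were followed beside Ghr and Lepr. Of 16 counted between lines, 1 was called higher in tSema4B than in vector cells without NE (background 3.34%), and 1 higher and 1 lower after NE (background 5.16%). Of 17 counted with NE, 1 was higher and 1 lower in vector cells (background 2.43%), and 2 were higher and 1 lower in tSema4B cells (background 1.73%). Igf1, the growth factor induced by growth hormone, was called in all 4 comparisons. Its level was 195 ± 25.0 in vector unstimulated, 673 ± 81.4 in tSema4B unstimulated, 44.2 ± 7.72 in vector NE and 215 ± 15.2 in tSema4B NE (SD, n = 3). It was thus higher in the tSema4B line, by 1.78 and 2.27 on the log2 scale, and lower with NE, at -2.13 in vector and -1.63 in tSema4B (limma adjusted p between 1.06e-09 and 6.37e-07). Socs3, a feedback inhibitor of cytokine receptors, rose with NE by 1.89 in vector cells and by 1.41 in tSema4B cells (limma adjusted p = 8.13e-06 and 4.23e-04). Cish, a further inhibitor of this family, rose with NE in tSema4B cells from 10.4 ± 5.45 to 35.9 ± 6.43 (limma adjusted p = 0.0140), a call that held in 17 of 21 alternatives (adjusted p up to 0.0735). Irs2, an insulin receptor substrate, was lower in tSema4B than in vector cells after NE, by 1.32 on the log2 scale (limma adjusted p = 0.0077). It stood there at 28.1 ± 12.0 against 68.3 ± 6.53. Without NE it was at 31.2 ± 8.03 in tSema4B and 41.6 ± 17.0 in vector cells. Sh2b2, an adaptor that binds JAK2, reached the filter in vector cells only and is described without a test, at 3.25 ± 1.21 in tSema4B against 20.3 ± 5.96 in vector cells without NE and at 5.44 ± 2.90 against 28.0 ± 7.01 after it.

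Of the 3 natriuretic peptide receptor genes, Npr3, the clearance receptor, fell with NE in both lines. The gene (ENSMUSG00000022206.7) lies on the minus strand at chr15:11839896-11907287. Its normalized counts were 83.6, 62.2 and 56.6 in vector unstimulated and 22.8, 30.8 and 11.1 in vector NE. They were 64.4, 86.6 and 87.6 in tSema4B unstimulated and 23.6, 25.6 and 31.7 in tSema4B NE. No NE library reached the lowest unstimulated library of either line. The log2 fold change was -1.69 ± 0.331 (SE) in vector cells, 3.22-fold lower (limma adjusted p = 0.0017). It was -1.52 ± 0.331 in tSema4B cells, 2.87-fold lower (limma adjusted p = 0.0059). Both calls held in all 22 alternatives, with log2 fold changes from -1.99 to -1.29 in vector and from -1.67 to -1.27 in tSema4B cells.

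Npr3 did not separate the lines. The difference between tSema4B and vector was 0.24 without NE (95% interval -0.45 to 0.93, limma adjusted p = 0.705) and 0.41 after NE (-0.28 to 1.09, limma adjusted p = 0.425). The interaction was 0.17 (-0.81 to 1.14, limma adjusted p = 0.940), so a difference in the NE response of more than about 1 on the log2 scale lies outside the interval. In the order of groups, both unstimulated groups came first and both NE groups last, and overlap was found within each pair. Of the 9389 exonic bases of Npr3, 321 are shared with Gm5144 on the opposite strand, and the strand setting of the counting is not given in the sources used here.

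The promoter of Npr3 is printed in the same way (RefSeq, GRCm38.p6, minus strand, chr15:11907372-11907621), with capitals for TGACG, the cyclic AMP response element half-site.
Npr3 promoter: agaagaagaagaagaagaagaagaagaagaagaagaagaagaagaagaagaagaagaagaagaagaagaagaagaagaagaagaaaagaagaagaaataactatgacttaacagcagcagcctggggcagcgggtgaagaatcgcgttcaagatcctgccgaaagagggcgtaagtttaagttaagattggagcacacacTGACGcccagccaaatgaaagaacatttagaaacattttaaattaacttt
It held 1 half-site, no full element, no NBRE and no GC box, and it overlaps 2 annotated exons. The first of 3 Pth1r windows was the only other member window with a half-site. A match to so short a motif describes the letters and is not evidence of binding.

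Npr1, the guanylyl cyclase receptor for atrial and brain natriuretic peptides that drives lipolysis, was lower in each of the 2 contrasts without passing either test. The gene (ENSMUSG00000027931.12) lies on the minus strand at chr3:90450591-90465866 and shares 559 exonic bases with Gm16048 on the opposite strand. Its normalized counts were 46.7, 53.8 and 53.4 in vector unstimulated, and 39.3, 29.4 and 38.3 in tSema4B unstimulated. With NE they were 34.3, 27.3 and 34.0 in vector and 24.7, 15.1 and 26.4 in tSema4B. No group of a compared pair overlapped the other in any of the 4 comparisons. The log2 fold changes were nevertheless modest: -0.52 (95% interval -1.17 to 0.13) and -0.54 (-1.19 to 0.11) between lines without and with NE, and -0.67 (-1.32 to -0.03) and -0.69 (-1.34 to -0.05) with NE in vector and tSema4B cells. The limma adjusted p-values were 0.312, 0.238, 0.186 and 0.207 in that order. Both unstimulated groups, vector first, stood above both NE groups, again vector first, and the middle 2 of this order overlapped.

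Npr2, the guanylyl cyclase receptor for C-type natriuretic peptide, was low. The gene (ENSMUSG00000028469.15) lies on the plus strand at chr4:43631935-43651244 and shares 266 exonic bases with Gm12473. Its normalized counts were 14.1, 26.9 and 13.1 in vector unstimulated, and 8.34, 4.64 and 1.37 in tSema4B unstimulated. They were 9.41, 3.56 and 3.27 in vector NE and 6.43, 8.52 and 3.96 in tSema4B NE. Vector unstimulated stood above the other 3 groups, which overlapped one another and held 1 to 14 reads per library. Relative to it, the fitted log2 fold change was -1.86 ± 0.657 (SE) in tSema4B unstimulated and -1.62 ± 0.657 in vector NE. Since Npr2 passed the filter only through that group, these differences and the interaction carry no test. The difference between the lines after NE was 0.26 (95% interval -1.10 to 1.63), and NE in tSema4B cells gave 0.50 (-0.87 to 1.86).

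**Figure D3:**
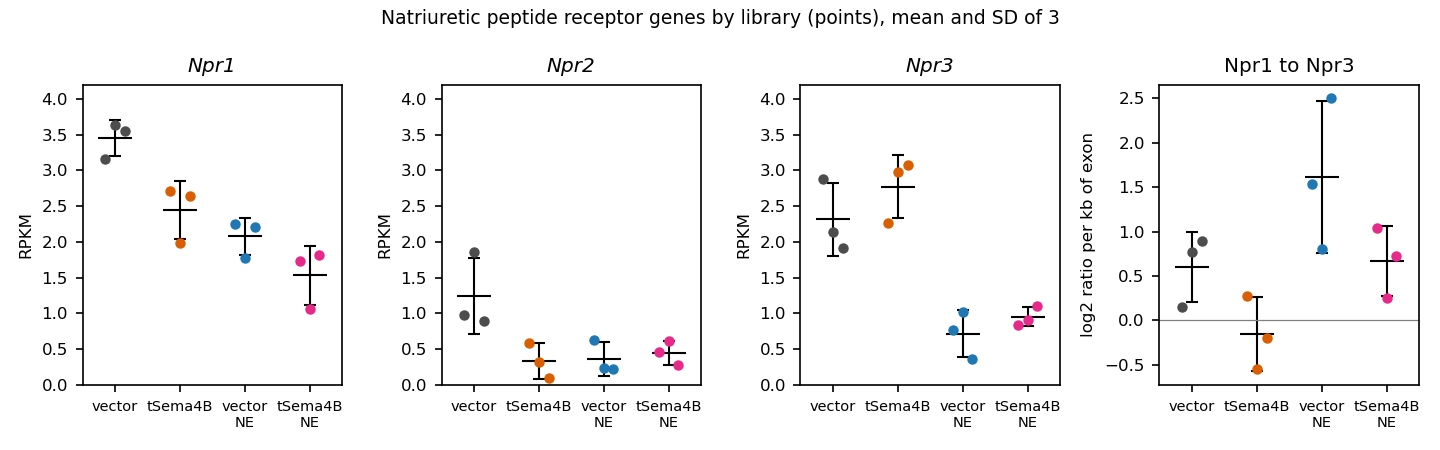
RPKM (reads per kb of exon scaled to library size, y axis, linear) for Npr1, Npr2 and Npr3 and the log2 ratio of Npr1 to Npr3 per kb (right panel) in the 12 libraries, by group (x axis). Points are libraries, horizontal lines the mean and bars the SD of 3. Npr3 exceeds Npr1 in tSema4B unstimulated only, by the group mean of the ratio (-0.16).

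Because Npr1 signals and Npr3 clears the same peptides, their levels were set against each other per length. The log2 ratio of Npr1 to Npr3 per kb of exon was 0.60 ± 0.40 in vector unstimulated, -0.16 ± 0.42 in tSema4B unstimulated, 1.61 ± 0.85 in vector NE and 0.67 ± 0.39 in tSema4B NE (SD, n = 3). The mean ratio was lower in tSema4B than in vector cells, by -0.76 without NE and -0.94 with it. It was higher with NE than without, by 1.01 in vector and 0.83 in tSema4B cells. Each pair of groups overlapped, and each of these 4 differences had p = 0.2 in a two-sided exact permutation test (adjusted p = 0.2), where the smallest p that 3 against 3 allows is 0.1. This test could not pass at 0.05, so its p-values do not decide whether the ratio differs. Of 6 genes of natriuretic peptide and cyclic GMP signalling counted between lines, limma, edgeR and DESeq2 called none without NE (background 3.34%) or after it (background 5.16%), and 2 and 1 had an unadjusted limma p under 0.05. Pde2a, a phosphodiesterase stimulated by cyclic GMP, reached the filter in vector cells only and stood at 9.97 ± 9.93 in tSema4B against 28.0 ± 3.31 in vector cells after NE, given without a test. Of 7 counted with NE, 1 was higher and 1 lower in vector cells (background 2.43%). There NE lowered Mme, the peptidase neprilysin that degrades natriuretic peptides, from 75.6 ± 16.3 to 34.1 ± 13.3 normalized counts (limma adjusted p = 0.0421), a call that held in 14 of 22 alternatives (adjusted p up to 0.196). Prkg2, a cyclic GMP-dependent kinase, rose there from 26.7 ± 2.96 to 62.1 ± 11.6 (limma adjusted p = 0.0076), a call that held in 20 of 22 alternatives. With NE in tSema4B cells none was called by limma, edgeR or DESeq2 (background 1.73%), and 3 had an unadjusted limma p under 0.05.

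Pth1r, the receptor for parathyroid hormone and its related peptide, was low. The gene (ENSMUSG00000032492.14) lies on the minus strand at chr9:110722085-110747145 and shares 95 exonic bases with Myl3. Its normalized counts were 6.52, 10.1 and 8.71 in vector unstimulated, and 11.9, 15.5 and 11.0 in tSema4B unstimulated. They were 8.06, 11.3 and 14.4 in vector NE and 5.36, 8.52 and 10.6 in tSema4B NE. The tSema4B unstimulated libraries lay above those of vector unstimulated and of tSema4B NE without overlap, whereas the groups overlapped in the other 2 comparisons. With 5 to 22 reads per library, the log2 fold changes were 0.55 (95% interval -0.51 to 1.61) and -0.43 (-1.49 to 0.63) between lines without and with NE. They were 0.36 (-0.70 to 1.42) and -0.62 (-1.68 to 0.44) with NE in vector and tSema4B cells. These intervals hold changes of more than 1 on the log2 scale in either one direction or the other, so this depth left such changes undecided. The limma adjusted p-values lay between 0.545 and 0.737.

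Ptger3, the prostaglandin E2 receptor that lowers cyclic AMP and is known as an antilipolytic receptor of fat, and Lepr, the leptin receptor, were at or below the limit of this depth. Levels per length are given as RPKM, reads per kb of exon scaled to library size. Ptger3 (ENSMUSG00000040016.16, plus strand, chr3:157566892-157645888) had 13 reads in 6 of the 12 libraries, a level of 0.0579 RPKM over 39468977 reads. Its highest library was tSema4B NE replicate 2 at 4.73 normalized counts. Lepr (ENSMUSG00000057722.17, plus strand, chr4:101717404-101815352) had no read in any of the 12 libraries, which allows up to 0.0108 RPKM over all libraries (3 reads, counting error only). In a single library 3 reads correspond to 1.78 to 4.64 normalized counts. Neither gene was tested.

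Per length, the receptors spanned a wide range. In vector unstimulated Ghr stood at 28.9 RPKM, followed by Tshr at 4.23, Prokr1 at 3.61, Npr1 at 3.45, Npr3 at 2.32, Npr2 at 1.24 and Pth1r at 0.928. In tSema4B unstimulated the levels were 39.4 for Ghr, 8.98 for Prokr1, 2.77 for Npr3, 2.45 for Npr1, 1.43 for Pth1r, 0.336 for Npr2 and 0.147 for Tshr. Tshr thus moved from the second to the last place among the 7, which follows from the difference it was chosen on.

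Few members passed the tests. The count below is first given for Ghr, Npr1, Npr3 and Pth1r, a restriction set after the values were seen. These 4 tested members were not taken on a line or NE difference and did not depend on 1 group for the filter. They too were chosen with earlier results of these data known, so their counts are not independent of the data. Between the lines, 0 of 4 were called without NE, where 3.82% of all 11996 genes were, and 0 of 4 after NE, where 5.76% were. At an unadjusted limma p under 0.05 there was 1 (Ghr) in each condition, and edgeR and DESeq2 called none. With NE, Npr3 was the 1 of 4 called in vector cells (background 2.63%) and also the 1 of 4 called in tSema4B cells (background 2.07%). On the adjusted p alone, 1, 1, 2 and 2 of the 4 passed in these comparisons, against 13.0%, 21.0%, 11.6% and 6.25% of all genes. The groups did not overlap for 3, 2, 3 and 4 of the 4, against 29.4%, 37.7%, 33.3% and 20.7% of all genes. Their median log2 fold change was 0.33, -0.012, -0.61 and -0.66, against -0.0025, -0.010, -0.019 and -0.0048 over all genes. For the interaction of line and NE, limma, edgeR and DESeq2 called 0 of 4. On the adjusted p alone, without the fold change threshold, limma passed 0 of 4 and 0.025% of all genes. An unadjusted limma p under 0.05 was found for 0 of 4, against 10.2% of all genes. With Npr2 and with Tshr or Prokr1 in the comparisons that did not choose them, 0 of 6 were called between lines in either condition, 1 of 6 with NE in vector cells and 2 of 6 with NE in tSema4B cells, where the added gene is Tshr. These additions are not independent of the choice or the filter and support nothing.

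The wider set of hormone and lipid-mediator receptors gave the members their context. Of 48 such genes, 12 had no read in any library and 19 could be tested. Of the 14 that reached the filter in each line, limma called 2 higher and 3 lower in tSema4B than in vector cells without NE, against 3.34% of all genes so restricted, and 3 higher and 3 lower after NE, against 5.16%. Adcyap1r1, the receptor of the neuropeptide PACAP, fell from 198 ± 68.2 to 13.7 ± 5.74 without NE and from 68.2 ± 22.7 to 11.7 ± 8.93 after it (limma adjusted p = 1.38e-05 and 4.45e-04). Hcar2, a receptor for hydroxybutyrate that restrains lipolysis, and Ffar4, a receptor for long-chain fatty acids, were also lower in both conditions, Ffar4 after NE in 18 of 21 alternatives (adjusted p up to 0.0607). Without NE, Hcar2 stood at 5.60 ± 3.35 in tSema4B against 26.1 ± 6.74 in vector cells, and Ffar4 at 6.55 ± 4.73 against 28.9 ± 2.52. These tSema4B values are near the floor, at 2 to 6 and 1 to 8 reads per library. Hcar2 reached the filter in that line only through its NE libraries. A further 4 receptor genes reached the filter in vector cells only and are described without a test. Adora1, the inhibitory adenosine receptor of adipocytes, stood at 1.99 ± 3.44 normalized counts in tSema4B against 37.2 ± 13.0 in vector cells without NE and at 2.52 ± 4.37 against 30.6 ± 3.37 after NE. Avpr1a, a vasopressin receptor, had no read in tSema4B unstimulated, at least 6.48-fold lower than the vector mean of 26.6 (floor of 3 reads per library). Hcar1, a receptor for lactate, stood at 4.27 ± 3.63 against 27.8 ± 13.0 and at 11.3 ± 6.56 against 35.6 ± 8.27, and Mc5r, a melanocortin receptor, at 1.31 ± 1.37 against 13.3 ± 10.9 and at 0.673 ± 0.586 against 13.9 ± 2.14, in the same order. Mc2r, the corticotropin receptor, reached the filter in neither line alone and was not called.

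Of the receptors called higher in tSema4B cells, Adora2b, the stimulatory adenosine receptor, stood at 26.8 ± 12.2 against 6.63 ± 3.05 without NE and at 56.6 ± 11.7 against 20.2 ± 5.67 after it (limma adjusted p = 0.0056 and 0.0186, the second kept as a call in 16 of 21 alternatives). Ptgir, the prostacyclin receptor, was higher by 1.03 and 1.06 on the log2 scale, calls kept in 18 and 19 of 22 alternatives (adjusted p up to 0.106 and 0.0566), and Ednra, an endothelin receptor, by 1.22 after NE. Of 16 receptor genes counted with NE, limma called 2 higher and 1 lower in vector cells (background 2.43%). In tSema4B cells it called 2 higher and 0 lower (background 1.73%). Hcar2 rose in both lines, by 2.00 in vector and 1.95 in tSema4B cells (limma adjusted p = 0.0048 and 0.0086, the second kept in 21 of 22 alternatives). The second starts from only 2 to 6 reads per library in tSema4B unstimulated. Adora2b also rose with NE in vector cells, by 1.51, a call that held in 15 of 21 alternatives. Ptgfr, the receptor for prostaglandin F2α, rose with NE in tSema4B cells, by 1.26. Ptger4, a stimulatory prostaglandin E2 receptor, fell by 1.15 with NE in vector cells (limma adjusted p = 0.0367), which held in 14 of 22 alternatives. None of the 14 genes that reached the filter in each line was called for the interaction by limma, edgeR or DESeq2. Of these, 0 had an unadjusted limma p under 0.05, against 10.2% of all 11996 genes. On the adjusted p alone, limma passed 0.025% of all genes for the interaction.

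**Figure D4:**
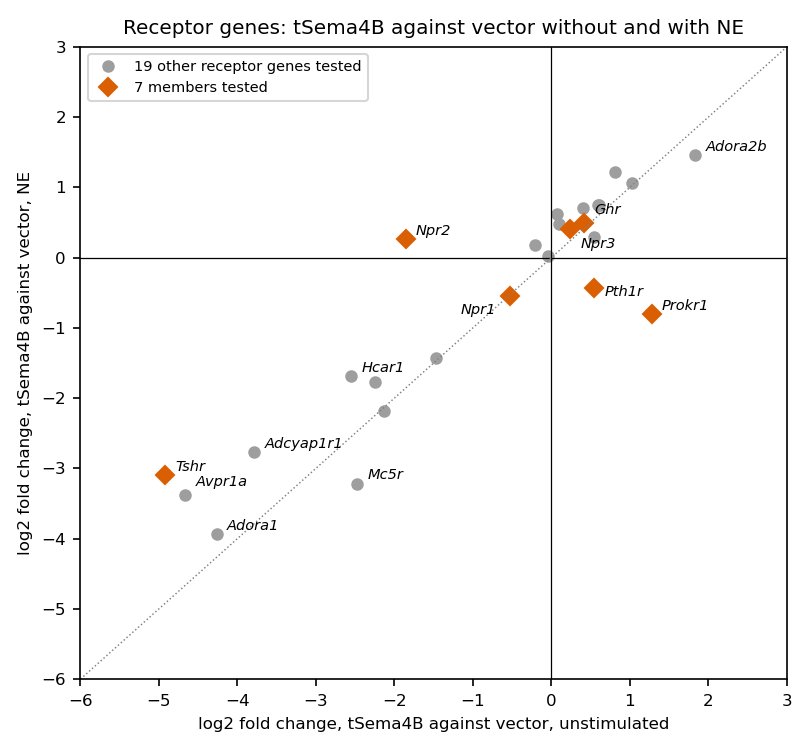
Log2 fold change of tSema4B against vector without NE (x axis) and after NE (y axis) for the 7 tested members (diamonds) and 19 other tested receptor genes (circles), with the line of equal change dotted. Tshr (-4.93 and -3.10) lies beside Avpr1a (-4.66 and -3.37) and Adora1 (-4.26 and -3.94) at the lower left, and the members Npr2, Prokr1 and Pth1r and the other receptors Thra (-0.20 and 0.18) and Nr3c1 (-0.041 and 0.029) change sign between the axes.

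The genes whose profile over the 12 libraries was most like that of each member were read off by Pearson's r among up to 8250 genes with a mean of at least 50 normalized counts, as a description without a test, since the libraries share 4 group means. For Tshr they were Klb (r = 0.969), the coreceptor of FGF21, and Ephx2 (r = 0.966), the soluble epoxide hydrolase. Klb stood at 151 in vector unstimulated, 16.6 in tSema4B unstimulated, 170 in vector NE and 32.4 in tSema4B NE. For Ghr they were Col6a2 (r = 0.981), a collagen VI chain, and Cnn2 (r = 0.970), a calponin, with Col6a2 at 1843, 2701, 1112 and 1672 normalized counts in the same order of groups. For Npr3 they were H1f0 (r = 0.946), a linker histone, and Figf (r = 0.925), the growth factor VEGF-D. For Prokr1 they were Vangl1 (r = 0.906) and Atp6v0a1 (r = 0.898), and for Npr1 Ak3 (r = 0.944) and Aldh3a1 (r = 0.922). The low genes Npr2 and Pth1r had weaker matches, Cflar (r = 0.877) and Chic2 (r = 0.805).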

How the data were processed

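RNA-seq of 12 libraries (SMART-Seq2 cDNA, single-end) was used. Per the study's methods the authors screened reads against other genomes, aligned them with STAR 2.7.9a to GRCm38, obtained gene counts from htseq-count and scaled these by DESeq2 size factors. The deposited signal is this normalized count. The annotation, strand setting and treatment of multimapping reads are not given in the sources used here. Dividing by the value of 1 read gave whole numbers for 100% of the non-zero values (tolerance 0.01), and these reads were used for edgeR and DESeq2. 4 rows with duplicated date-like symbols were left out.

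Values were taken as log2(value + 1), genes reaching 10 normalized counts in 3 or more libraries were kept (11996), and the 4 groups were fitted together in limma 3.58.1 (R 4.3.3, trended moderated variances, two-sided, Benjamini-Hochberg over all genes). The pseudocount shrinks differences of low genes, while a mean of logs gives a library near 0 more weight than pooled reads do, so the fitted fold change of a low gene can lie on either side of its read ratio. A call needed both an adjusted p of at most 0.05 and a log2 fold change of 1 or more in size. RPKM values were computed from the whole reads and exon lengths. The members, gene lists and tests were chosen with earlier results of these data known. Named genes were the members, called genes of the lists and the 2 genes most correlated with each member. Alternatives were pseudocounts of 0.5 and 10, no filter or a filter at 50, equal totals, quantile normalization, edgeR 4.0.16, DESeq2 1.42.0, only the 6 libraries compared, a replicate block, and leaving out each library. A count without Tshr, Prokr1 and Npr2, and the restriction of list counts to genes that reached the filter on each side of a contrast, were added after seeing the data. Positions and exon lengths came from GENCODE for GRCm38. The script was tested on simulated data. Intervals of reads are exact and cover counting error only.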

Additional observations from a re-analysis of the deposited data

How the results depend on the processing

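Of 733 values of member differences over all alternatives, 698 kept their direction and call, 15 lost the call (all Tshr with NE in tSema4B cells, which is given above as a description), 7 gained one (Prokr1 and Npr2), 1 changed in size and 12 changed sign. A call needs both thresholds, and among the 698 the adjusted p alone passed to the other side in 5 values of Ghr, given above, and 1 of Npr2. Over Ghr, Npr1, Npr3 and Pth1r, a restriction added after seeing the data, the members called were 0, 0, 1 and 1 in the 4 comparisons in each of 23 settings, Npr3 being the gene called. The counts that follow include Tshr, Prokr1 and Npr2, whose calls are not independent of the choice or the filter and support nothing. Between lines without NE, the members called went from 0 to 1 with a pseudocount of 10, edgeR, DESeq2 or only the 6 libraries compared (Prokr1 each time) and on the adjusted p alone (Ghr), and lay between 0 and 1 when single libraries were left out (Npr2 without tSema4B unstimulated replicate 1, Prokr1 without tSema4B NE replicate 1). Between lines after NE, it went from 0 to 1 on the adjusted p alone (Ghr). With NE in vector cells, it went from 1 to 2 with only the 6 libraries compared (Npr2 added) and on the adjusted p alone (Ghr added). With NE in tSema4B cells, it went from 2 to 1 with a pseudocount of 10, no filter, edgeR, DESeq2 or only the 6 libraries compared, was 1 without Tshr, Prokr1 and Npr2, and lay between 1 and 2 over the libraries left out (Tshr lost). On the adjusted p alone it went from 2 to 3 (Ghr added). The signs that changed were those of Prokr1 between lines after NE (0.32 without tSema4B NE replicate 1, range -1.59 to 0.32), Npr2 with NE in tSema4B cells (-0.041 without tSema4B unstimulated replicate 3, range -0.041 to 0.95), and the interactions of Ghr (-0.034 to 0.23 over the libraries left out), Npr3 (-0.23 to 0.47) and Npr1 (0.031 with a pseudocount of 10, 0.047 with equal totals, -0.16 to 0.22 over the libraries left out). The cause was not tested. The replicate numbers do not pair the libraries: correlations of deviations between same-numbered libraries lay between -0.047 and 0.028 over 18 pairs, and 0 of 12 libraries correlated best with its own number. With the replicate block the members called were 0, 0, 1 and 2 in the 4 comparisons, as without it. Depth limits Lepr, Ptger3, Npr2 and Pth1r, and the tSema4B values of Tshr.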

Other observations

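The ligands of these receptors and their coupling proteins were followed as well. Of 20 genes for ligands and their synthesis, 7 had no read in any library, and the 5 that were tested all belong to prostaglandin E2 synthesis. Ptges2, a prostaglandin E synthase, was lower in tSema4B than in vector cells without NE, at 14.2 ± 3.02 against 34.2 ± 2.52 normalized counts (SD, n = 3, limma adjusted p = 0.0230, called in 14 of 21 alternatives). Ptges, the inducible synthase, was higher in tSema4B cells after NE, at 341 ± 27.8 against 168 ± 15.2 (limma adjusted p = 4.16e-05, called in 19 of 22 alternatives). Of the G protein and cyclic AMP coupling genes (12 counted between lines and 11 with NE), 0 were called in any of the 4 comparisons by limma, edgeR or DESeq2, where limma called 3.34%, 5.16%, 2.43% and 1.73% of all genes restricted in the same way, and 1, 2, 1 and 2 of them had an unadjusted limma p under 0.05. Of the 5 ligand genes, none was called with NE in either line by the 3 tools (background 2.43% and 1.73%), and 1 in vector and 4 in tSema4B cells had an unadjusted limma p under 0.05.

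Markers of other cell types were present to unequal degrees. Of 9 macrophage markers, Cd14 was higher with NE in vector cells by limma, at 32.3 ± 3.90 against 12.9 ± 3.77 normalized counts (limma adjusted p = 0.0464, kept in 12 of 21 alternatives). Csf1r reached the filter through the NE libraries only and is described without a test, at 11.5 ± 2.50 with NE against 1.37 ± 0.708 without it in vector cells and at 15.8 ± 5.42 against 1.31 ± 1.37 in tSema4B cells. Kdr, Tie1 and Cldn5 had no read among 8 endothelial markers, which summed to 4.34 to 23.3 normalized counts per library. Mural cell markers were well above the floor, with the 7 genes summing to 710 to 1420 and Acta2 at 665 to 1092 in group means, while the smooth muscle gene Myh11 had 3 reads in all. Notch3, 1 of 5 counted in this list, was called higher in tSema4B cells after NE (background 5.16%), at 159 ± 47.5 against 70.3 ± 14.5 (limma adjusted p = 0.0040). The list sums overlapped there, at 710 to 1078 in tSema4B NE and 779 to 1012 in vector NE. In the same order of lines, Mcam stood at 104 against 135, Des at 9.63 against 12.7, Acta2 at 665 in both and Rgs5 at 14.2 against 7.80. Sox10 and Rbfox3 had no read among 7 Schwann cell and neuron markers, and Tubb3 of this list was higher in tSema4B cells without NE, at 75.5 ± 10.4 against 28.1 ± 3.56 (limma adjusted p = 0.0016). The list summed to 29.4 to 51.1 in vector and 58.1 to 107 in tSema4B libraries. Tubb3 carried most of this sum, with means of 28.1 and 39.9 in vector and 75.5 and 56.3 in tSema4B cells, without and with NE. The part of these markers in the results was not tested.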
